A study of Mus musculus with 12 samples.

Results

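The 83 genes for the proteins of the cytosolic ribosome were followed in mouse primary CD8+ T cells in which the transcription factor gene *Creb1* was or was not knocked down and which were or were not given trans-vaccenic acid (TVA). They were taken by name from the 54532 genes listed, as protein-coding genes called Rpl or Rps with a number, plus *Rplp0*, *Rplp1*, *Rplp2* and *Rpsa*. Of these, 51 encode proteins of the large (60S) subunit and 32 proteins of the small (40S) subunit. No measured value entered this name rule, though it was set with earlier results of these data known. All 12 libraries came from isolated and activated CD8+ T cells collected after 24 h of treatment. The siNTC group received a non-targeting control siRNA and DMSO, and is labelled wild type. The siNTC plus TVA group received the same siRNA and TVA. The si*Creb1* group received an siRNA against *Creb1* and DMSO, and the si*Creb1* plus TVA group received that siRNA and TVA; both are labelled *Creb1* knockdown. Each of the 4 groups had 3 libraries. The knockdown is transient and by RNA interference, so some *Creb1* mRNA remained. Neither the labels nor the methods say whether the libraries of a group came from separate mice, so the p-values measure the spread between these libraries, which may be technical.

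A ribosome is built from ribosomal RNA and one copy of most ribosomal proteins; the stalk proteins of the 60S subunit, *Rplp1* and *Rplp2*, are present in more copies and recruit elongation factors. Ribosomal protein mRNAs are among the most abundant in dividing cells. Most begin at a cytosine followed by a run of pyrimidines, the 5′ terminal oligopyrimidine (5′TOP) sequence, through which mTORC1 and LARP1 set their translation. T cells enlarge and make ribosomes when activated, before they divide. CREB1, the product of *Creb1*, binds the cAMP response element (CRE).

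The libraries held between 16660234 and 24602484 reads, recovered from the deposited FPKM values (a level scaled for gene length and for the reads of the library). *Creb1* stood between 10.3 and 12.4 FPKM in the 6 siNTC libraries and between 1.17 and 1.81 FPKM in the 6 si*Creb1* libraries, with no overlap. The log2 fold change of *Creb1* was -2.27 ± 0.11 SE without TVA (limma, adjusted p = 2.21e-06) and -2.34 ± 0.11 SE with it (adjusted p = 2.45e-06). The cells carried the markers of their label, with *Cd8a* between 416 and 450.4 FPKM and *Cd8b1* between 822 and 941 FPKM. Over the libraries the summed level of 5 B cell markers was 9.48 to 14.2 FPKM, that of 6 myeloid markers 5.50 to 9.50, that of 3 natural killer cell markers 4.69 to 6.72 and that of 3 markers of CD4 and regulatory T cells 3.98 to 5.82. Among 4 erythroid and platelet markers *Hbb-bs* was at 0 in every library and *Pf4* made up nearly all of the sum, which was 66.3 to 73.9 FPKM in siNTC cells with or without TVA and 44.1 to 54.0 in si*Creb1* cells with or without TVA. The sum of 7 T cell markers was 1537 to 1544 FPKM in siNTC cells, 1471 to 1514 with TVA, 1440.2 to 1460.4 with si*Creb1* and 1414 to 1433 with both. All these values are shares of a library. In bulk RNA, fewer cells of a type and less RNA per cell cannot be told apart, and neither can less ribosomal protein mRNA and more of other RNA.

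Ribosomal protein genes took 11.2, 11.5 and 11.2% of all reads in siNTC cells. The shares were 11.0, 11.1 and 10.9% in siNTC plus TVA cells, 10.8, 11.1 and 11.0% in si*Creb1* cells and 10.6, 10.3 and 10.6% in si*Creb1* plus TVA cells. The 3 siNTC libraries were above all others and the 3 si*Creb1* plus TVA libraries below all others, while the other two groups overlapped. As means, the share was 11.3% ± 0.192 (SD, n = 3) in control cells, 11.0% ± 0.0628 after TVA, 11.0% ± 0.173 after knockdown and 10.5% ± 0.176 after both, or 0.972, 0.970 and 0.929 times the siNTC mean in the last 3. The 60S genes took 6.10, 6.24 and 6.12%, then 5.99, 5.98 and 5.93% with TVA, 5.92, 6.03 and 6.01% with si*Creb1* and 5.75, 5.64 and 5.79% with both, with the siNTC libraries again above all others. The 40S genes took 5.07, 5.28 and 5.09%, then 4.99, 5.07 and 5.00% with TVA, 4.85, 5.07 and 4.99% with si*Creb1* and 4.81, 4.66 and 4.84% with both. For the 40S genes the lowest siNTC library lay below 1 library of siNTC plus TVA and 1 of si*Creb1* cells, and the si*Creb1* plus TVA libraries were below all others. No test was run on these sums. Taken as a share of summed FPKM, the ratio to siNTC was 0.967 with TVA, 0.995 with si*Creb1* and 0.945 with both, so with si*Creb1* alone the lower share was seen in reads and hardly in summed FPKM.

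**Figure D1:**
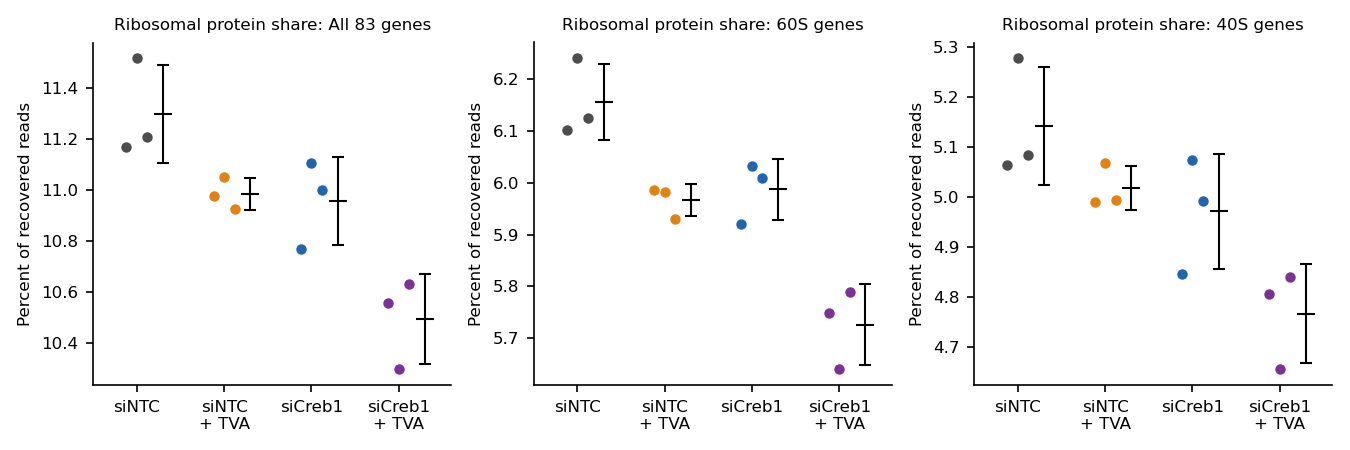
Share of recovered reads on ribosomal protein genes in each of 12 libraries (dots; percent, axes do not start at 0), for all 83 genes, the 51 genes of the 60S subunit and the 32 of the 40S subunit, with the group mean and SD beside each group (n = 3). The siNTC libraries lie between 11.2 and 11.5% and the si*Creb1* plus TVA libraries between 10.3 and 10.6% for all 83 genes.

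Levels per length differed widely among the members. The median member had a mean of 584 FPKM over the 12 libraries, against 8.17 FPKM for all genes tested, and 74 members were at 100 FPKM or more. Of the 100 highest protein-coding genes, 61 were members. The highest were *Rplp1* (mean 4397 FPKM), a stalk protein, *Rplp0* (2986 FPKM), the base of the stalk, *Rps3a1* (2884 FPKM), *Rps15* (2138 FPKM) and *Rpl36* (2052 FPKM). The third stalk gene, *Rplp2*, was at 641 FPKM, under its partner *Rplp1*. The gap was narrower in reads, with means of 27540.5 for *Rplp2* and 45623.9 for *Rplp1*, whose listed lengths are 2072 and 499 bases. Levels were lower for members of greater listed length, with a Spearman rho of -0.565 across the 80 members tested, genes that share all libraries and are not independent replicates. FPKM divides reads by that same length, so the measure itself tends to give a negative rho. Length here is the union of all annotated exons, retained introns included, and it matched that union for 79 of 83 members.

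At the low end, 5 members had a mean under 5 FPKM. *Rpl10l* and *Rpl3l*, copies used in testis and in muscle, were at 0 in all libraries and at 0 to 0.0988 FPKM, and *Rpl39l*, another testis copy, was at 0.218 to 1.06 FPKM. These 3 did not pass the minimum mean of 1 FPKM, which leaves 80 members tested. The other two, *Rpl24* (mean 2.73 FPKM) and *Rps10* (mean 2.59 FPKM), are single core proteins of their subunits. *Rpl24* was read at 2.53, 2.62 and 2.34 FPKM in siNTC cells, 2.57, 2.63 and 1.62 with siNTC plus TVA, 3.06, 2.56 and 2.81 with si*Creb1* and 4.41, 2.79 and 2.81 with si*Creb1* plus TVA, far under most other members. *Rps10* was read at 2.25, 3.43 and 2.69 FPKM in siNTC cells, 2.46, 3.12 and 2.32 with siNTC plus TVA, 2.44, 2.73 and 2.00 with si*Creb1* and 2.20, 2.61 and 2.88 with si*Creb1* plus TVA. *Rpl13a*, a further core gene, had a mean of 28.3 FPKM. These were the 3 members with at least 20% of their exon bases on the same strand as exons of another annotated gene. *Rps10* (chr17:27630418-27636669, minus strand) shares 475 exon bases with *RPS10-NUDT3*, *Rpl24* (chr16:55966275-55971435, plus strand) 484 with *Gm28037* and *Rpl13a* (chr7:45125558-45128761, minus strand) 621 with *Gm45713*. Those 3 overlapping genes had 0 reads in all 12 libraries. Of the members that share exon bases on the opposite strand, *Rpl35*, with 66.2% of its exon bases opposite exons of *Wdr38* and *Arpc5l*, had a mean of 507 FPKM. How the counting program treated a read that lies in 2 genes is not given in the sources used here, and the part of the overlap in these low values was not tested.

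**Figure D2:**
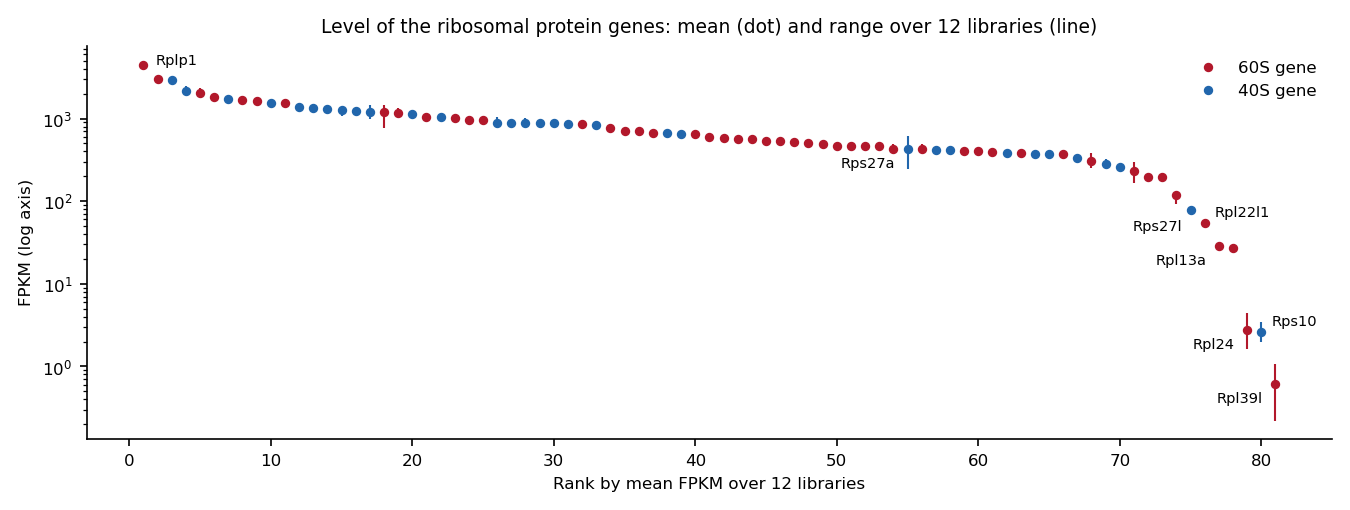
Mean FPKM over 12 libraries (dots, log axis) with the range over the libraries (lines), for the 81 members with a mean over 0.1 FPKM, ranked from highest to lowest and coloured by subunit. *Rplp1* leads at 4397 FPKM, and *Rpl24* and *Rps10* are at 2.73 and 2.59 FPKM beside a median of 584.

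Processed pseudogenes and other near-identical copies held part of the reads. At least 98% identity over at least 50% of the coding sequence was found for 67 members in 240 other genes, 97 of them with a mean of 100 reads or more. Reads on the copies equalled 7.44 to 8.13% of the member reads, depending on the library. For *Rps10* they took nearly all, with a mean of 124 reads on the gene and 9673 on its copies, of which 9259 lay on *Rps10-ps2*. Counted together, *Rps10* and its copies reached 439 to 573 RPM, that is reads scaled to the library's total of recovered reads. *Rpl17* held 46.9% and *Rpl21* 47.2% of the reads of gene and copies, *Rpl23* 65.0% and *Rps7* 74.1%, and 21 members held under 90%. Adding the copies lowered the spread within groups for some of them, from a coefficient of variation of 16.0 to 3.96% for *Rpl17* and from 8.21 to 2.92% for *Rpl21*. Values of these members on their own are uncertain to that extent. Adding the copies to every member raised the share of reads to between 11.1% in the lowest si*Creb1* plus TVA library and 12.4% in the highest siNTC library.

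**Figure D3:**
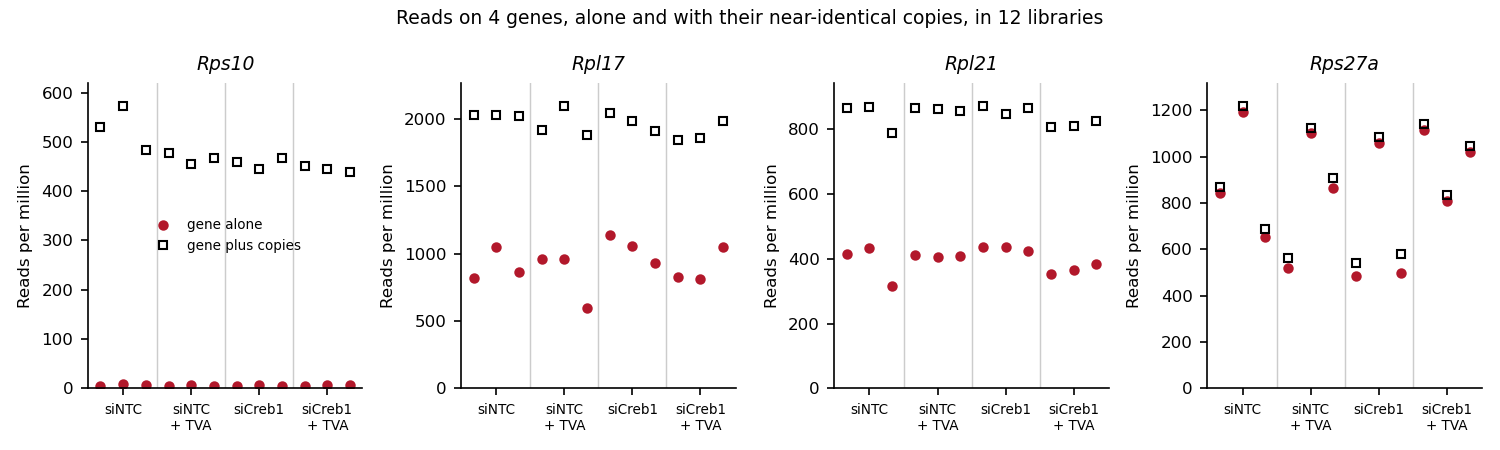
Recovered reads (RPM, scaled to library size) on *Rps10*, *Rpl17*, *Rpl21* and *Rps27a* alone (filled dots) and with their near-identical copies (open squares) in the 12 libraries, in the order of the 4 groups. The copies hold nearly all *Rps10* reads and about as many as the gene itself for *Rpl17* and *Rpl21*, and few of those of *Rps27a*, which keeps its wide spread.

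Promoters are shown for the members with the full CRE, the site that CREB1 is known to bind, because one of the treatments removed *Creb1* mRNA. RefSeq windows from 250 bases before to 50 bases after the annotated start, on GRCm38.p6, were matched by symbol to 63 of 83 members. The palindrome TGACGTCA was in 5 of the 63 (7.94%), against 2.03% of 27025 genes with a window. Those genes were not limited to the ones tested here nor matched to the members in level, which holds for all promoter shares below. The 5 sites follow, written 5′ to 3′ along the gene with the palindrome in capitals.
Rpl13, chr8:123102315-123102344, plus strand: gcgggttcgcgTGACGTCActtccctttcg
Rpl18, chr7:45717981-45718010, plus strand: tcgcgctcatgTGACGTCAcccgtgcacca
Rpl26, chr11:68901421-68901450, plus strand: cctccgagggaTGACGTCAggacccctcgc
Rpl27a, chr7:109519087-109519116, plus strand: gccgggagccgTGACGTCAggagcccttcc
Rps9, chr7:3703973-3704002, plus strand: gcggtgcgtgaTGACGTCActacaaggcga
They lie 24 bases before the annotated start in *Rpl13*, 79 in *Rpl18*, 134 in *Rpl26*, 97 in *Rpl27a* and 57 in *Rps9*. The shorter letters TGACG, on either strand and also found inside the palindrome, were in 31 members (49.2%, against 23.0% of genes), and the ETS core CCGGAAG, on either strand, in 26 (41.3%, against 9.93%). The SP letters GGGCGG were in 39 (61.9%, against 38.2%), the YY1 core AAGATGGC in 6 (9.52%, against 3.19%) and the E-box CACGTG in 6 (9.52%, against 8.09%). A match describes letters in a window and is not a site in use.

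A stretch of at least 5 pyrimidines, counted from a C within 3 bases of the annotated start whatever the base before that C, was in 25 of the 63 members (39.7%), against 13.5% of all genes with a window. The 5 longest stretches among members that fell in at least 1 comparison are printed to show the letters at the annotated start, with the stretch as counted in capitals and 10 bases of promoter before the annotated start.
Rpl15, chr14:18270967-18270996, minus strand: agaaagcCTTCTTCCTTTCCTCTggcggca
Rpl35, chr2:39005112-39005141, minus strand: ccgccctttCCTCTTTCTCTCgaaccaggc
Rpl18, chr7:45718061-45718090, plus strand: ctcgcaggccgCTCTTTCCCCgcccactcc
Rpl28, chr7:4792955-4792984, plus strand: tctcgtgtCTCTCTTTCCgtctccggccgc
Rps6, chr4:86857348-86857377, minus strand: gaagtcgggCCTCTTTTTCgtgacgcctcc
In *Rpl15*, *Rpl35* and *Rpl28* the pyrimidines reach further back than the capitals, so that the counted C does not open the whole run. An annotated start is not always the one in use, so a member without such a stretch here may still carry one.

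TVA in siNTC cells was compared first, to ask whether the fatty acid moved ribosomal protein mRNAs in cells with *Creb1* intact. TVA was accompanied by lower levels of 8 of the 80 members tested and higher levels of none at an adjusted p under 0.05 (limma), that is 10% of them, where 2.88% of all 11550 genes were lower and 4.49% higher. The members that fell were *Rps15*, *Rpl26*, *Rpl19*, *Rpl8*, *Rplp0*, *Rps6*, *Rpl13* and *Rps4x*, 3 of the 40S and 5 of the 60S subunit. The falls were small, between -0.14 and -0.074 on the log2 scale of FPKM + 1. The median of all 80 members was -0.044, against -0.0056 for all genes tested, and 61 members had a negative sign (76.2%, where 52.3% of all genes did). Under quantile normalization the median was 0, and *Rplp0*, *Rps6*, *Rpl8* and *Rpl19* did not keep their sign. That scaling gives each library the same set of values, so a shift shared by many of the highest genes can be lost in it. The standard error of a member was 0.033 in the median and that of all genes 0.063, so smaller differences could pass in the members. The sum of T cell markers was lower with TVA without overlap, and 6 of the 7 had a negative sign. Both CD8 markers had a positive sign. Their sum was 1342 to 1357 FPKM without and 1353 to 1363 FPKM with TVA, with overlap. The part of these markers in the difference was not tested.

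*Rps15*, a 40S protein at the decoding side, was read at 2306, 2442 and 2279 FPKM in siNTC cells, 2129.7, 2142 and 2099.7 with siNTC plus TVA, 2051, 2085 and 2132 with si*Creb1* and 2008, 1966 and 2010.3 with si*Creb1* plus TVA. All siNTC libraries were above all others. TVA changed it in siNTC cells by -0.14 ± 0.028 (SE; adjusted p = 0.0123). *Rps6*, the 40S protein that S6 kinases phosphorylate, was read at 1849, 1791 and 1768 FPKM in siNTC cells, 1692, 1680.0 and 1686 with siNTC plus TVA, 1740.2, 1692 and 1758 with si*Creb1* and 1662, 1676 and 1674 with si*Creb1* plus TVA. Its 3 siNTC libraries were above the 3 siNTC plus TVA libraries, with a log2 fold change of -0.096 ± 0.022 (SE; adjusted p = 0.0276), while the si*Creb1* libraries lay at or above 1692 FPKM and those of si*Creb1* plus TVA at or below 1676. *Rpl26*, a 60S protein that also binds the *Trp53* mRNA, stood at 808, 824 and 828 FPKM in siNTC cells and 774, 749 and 736 with TVA (-0.12 ± 0.029 SE, adjusted p = 0.0292). *Rpl19* was at 1797, 1751 and 1729 FPKM and 1603, 1641 and 1631 with TVA (-0.11 ± 0.023 SE, adjusted p = 0.0134). Neither pair of groups overlapped. Libraries did not overlap for 28 members that were lower with TVA, or 35% of those tested, where 12.2% of all genes were lower without overlap, and for 4 that were higher, where 11.7% of all genes were. The call of *Rps4x* (-0.074 ± 0.020 SE, adjusted p = 0.0497) and that of *Rplp0* (-0.10 ± 0.027 SE, adjusted p = 0.0489) lay closest to the threshold. Fitted on the 6 libraries of this comparison alone, no member was called, where 375 of 11471 genes were. With TPM in place of FPKM 1 member was, where 556 of 11550 genes were. Leaving out 1 library gave 1 to 10 calls of members. Without siNTC plus TVA replicate 3 only 1 member was called, and without siNTC replicate 2, siNTC plus TVA replicate 1 or siNTC plus TVA replicate 2 there were 2. Over all genes, leaving out 1 library gave 556 to 767 calls, against 852 with all libraries.

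TVA in si*Creb1* cells asked for the same effect after knockdown. No member passed the adjusted threshold in either direction, where 0.416% of all genes were lower and 0.121% higher with limma. The median of the members was -0.076, against -0.0012 for all genes tested, and 72 of 80 had a negative sign (90%, where 50.8% of all genes did); under quantile normalization the median was -0.031, against 0.0030 for all genes, and 56 members had a negative sign. At an unadjusted p under 0.05, 43 members were lower and none higher, or 53.8%, where 5.39% of all genes were lower and 4.19% higher. Libraries did not overlap for 41 members, all lower (51.2%, where 9.01% of all genes were). The lowest adjusted p was that of *Rpl3*, which forms part of the peptidyl transferase centre, at 836, 866 and 843 FPKM in si*Creb1* cells and 793, 777 and 793 with TVA (-0.11 ± 0.022 SE, adjusted p = 0.071). *Rpl32* was at 1780.4, 1955 and 1812 FPKM and 1662, 1631 and 1700.2 (-0.15 ± 0.035 SE, adjusted p = 0.134). In both the libraries with TVA were the lower ones, without overlap. Tested by limma-voom on the recovered reads, 18 members were lower and 0 higher at the adjusted threshold, where 0.978% of all genes were lower and 0.416% higher in that fit. Beside the lower members, sums of markers of other cells were higher with TVA, and the libraries did not overlap. The myeloid sum was 5.75 to 7.25 FPKM without and 8.61 to 9.50 FPKM with TVA, the B cell sum 10.2 to 11.4 and 11.8 to 12.8, the natural killer cell sum 5.13 to 5.84 and 5.86 to 6.16 and the erythroid and platelet sum 44.1 to 50.1 and 51.4 to 54.0, while the T cell sum was lower with TVA, also without overlap. Of the 7 T cell markers, 4 had a negative and 3 a positive sign, and *Trac* went from a mean of 505 to 479 FPKM. Both CD8 markers had a positive sign. Their sum was 1268 to 1289 FPKM without and 1285 to 1310 FPKM with TVA, with overlap. No single marker passed the adjusted threshold in this comparison, and the part of the marked cell types in the difference was not tested.

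**Figure D4:**
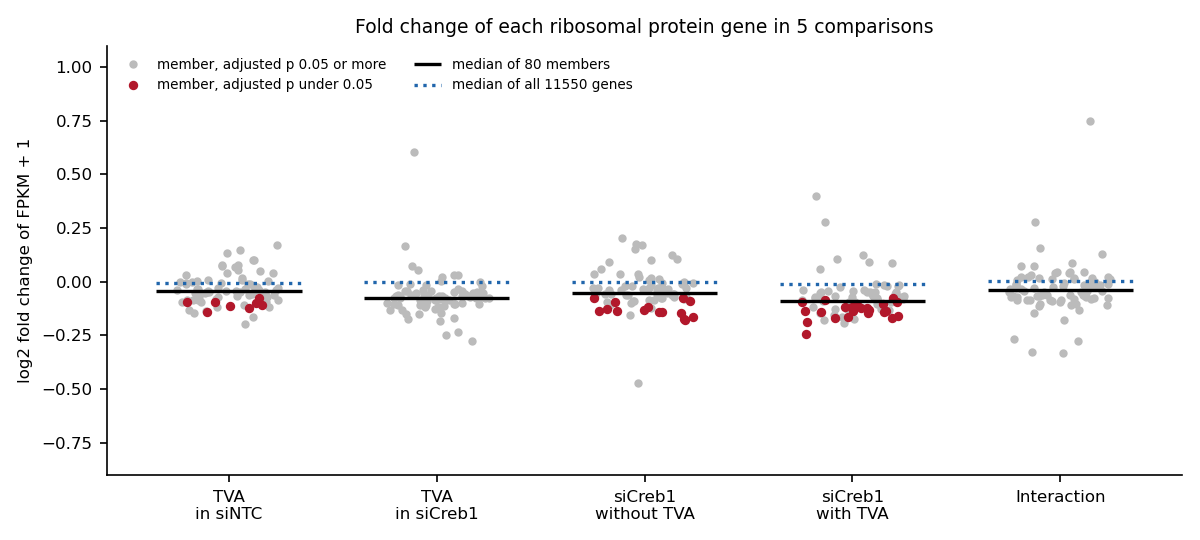
log2 fold change of FPKM + 1 for the 80 members tested in each of 5 comparisons, spread sideways for legibility. Red dots passed an adjusted p under 0.05 and all lie below 0; black bars are the median of the members and dotted bars that of all 11550 genes. The members' median is below that of all genes in all 5 comparisons, furthest in si*Creb1* with TVA; under quantile normalization it is above in TVA in siNTC cells and in both si*Creb1* comparisons.

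Knockdown of *Creb1* without TVA lowered 15 of 80 members and raised none (18.8%, where 7.21% of all genes were lower and 6.52% higher). Of these, 6 belong to the 40S and 9 to the 60S subunit. The largest falls were those of *Rps3* (-0.18), *Rps14* (-0.17), *Rps15* (-0.16), *Rpl18* (-0.14) and *Rpl19* (-0.14). Among those that fell by less were *Rplp0*, *Rpl15*, *Rpl26*, *Rps15a*, *Rpl8*, *Rps3a1*, *Rpl13*, *Rps26* and *Rpl3*. The median of all members was -0.053, against -0.0011 for all genes, and 63 members had a negative sign (78.8%, where 50.4% of all genes did); under quantile normalization the median was 0.019, the calls were 2 higher and 3 lower (6.48% and 5.52% of all genes were), and *Rplp0*, *Rps3a1*, *Rpl8*, *Rpl19*, *Rps26* and *Rpl3* did not keep their sign. Libraries did not overlap for 25 members that were lower and 3 that were higher (31.2% and 3.75%, where 16% and 15.5% of all genes were). This comparison shares its siNTC libraries with that of TVA in siNTC cells. Beside it, 4 of 7 T cell markers (*Cd3d*, *Cd3g*, *Lck* and *Trac*) fell. Of the 7, 6 had a negative sign and 1, *Cd3e*, a positive one (from a mean of 94.7 to 100.8 FPKM). *Cd8b1* fell (from a mean of 934 to 835 FPKM, -0.16 ± 0.019 SE, adjusted p = 0.000665), *Cd8a* rose (from a mean of 417 to 443 FPKM, 0.089 ± 0.015 SE, adjusted p = 0.00397) and *Pf4* fell (from a mean of 71.9 to 46.5 FPKM, -0.62 ± 0.048 SE, adjusted p = 5.5e-05). The part of these markers in the difference was not tested. Without si*Creb1* replicate 1 the count of members called was 9, where 1022 of 11550 genes were called. Fitted on the 6 libraries compared it was 4 (824 of 11521 genes), and with TPM it was 3 (1205 of 11550 genes).

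*Rps3*, a 40S protein at the mRNA entry channel that is also a subunit of NF-κB complexes, was read at 739, 726 and 696 FPKM in siNTC cells, 684, 691 and 661 with siNTC plus TVA, 617, 653 and 641 with si*Creb1* and 611, 601 and 605 with si*Creb1* plus TVA. The siNTC libraries were the highest and the si*Creb1* plus TVA libraries the lowest, and each si*Creb1* group was below its siNTC partner without overlap. The log2 fold change was -0.18 ± 0.029 (SE; adjusted p = 0.00358) without TVA and -0.16 ± 0.029 (SE; adjusted p = 0.00775) with it. *Rps14*, the 40S gene lost in human 5q- syndrome, was read at 1389, 1453 and 1433 FPKM in siNTC cells, 1351, 1384 and 1362 with siNTC plus TVA, 1225, 1291 and 1276 with si*Creb1* and 1202, 1163 and 1229 with si*Creb1* plus TVA. Each si*Creb1* group was again below its siNTC partner without overlap, and the si*Creb1* groups with and without TVA overlapped. The log2 fold change was -0.17 ± 0.029 (SE; adjusted p = 0.00365) without TVA and -0.19 ± 0.029 (SE; adjusted p = 0.00403) with it. *Rplp0*, often used as a reference gene in quantitative PCR, was read at 3318, 3224 and 3121 FPKM in siNTC cells, 3028, 3003 and 2984 with siNTC plus TVA, 2867, 2895 and 2999.6 with si*Creb1* and 2803, 2777 and 2818 with si*Creb1* plus TVA. It fell with si*Creb1* both without TVA (-0.14 ± 0.027 SE, adjusted p = 0.00688) and with it (-0.10 ± 0.027 SE, adjusted p = 0.0367), without overlap in either comparison. *Rpl15* was at 418, 412 and 395 FPKM in siNTC cells and 367, 368 and 380.1 in si*Creb1* cells (-0.13 ± 0.027 SE, adjusted p = 0.00943).

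**Figure D5:**
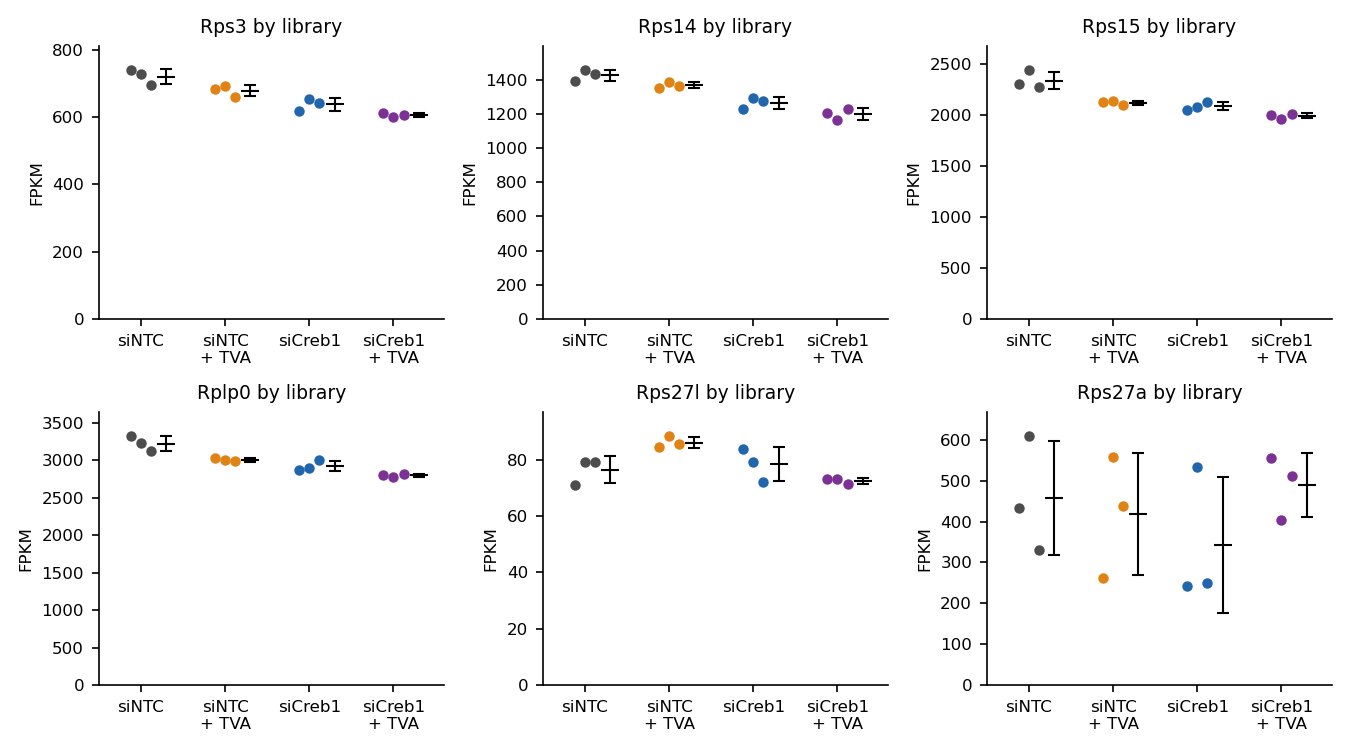
FPKM of 6 members in each library (dots; axes start at 0) with the group mean and SD (n = 3). *Rps3*, *Rps14*, *Rps15* and *Rplp0* have their highest mean in siNTC and their lowest in si*Creb1* plus TVA cells, for *Rplp0* not under quantile normalization, *Rps27l* has its highest in siNTC plus TVA cells, and the *Rps27a* libraries of each group overlap widely.

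Knockdown of *Creb1* with TVA lowered 23 of 80 members and raised none (28.8%, where 5.51% of all genes were lower and 4.64% higher), 13 of the 40S and 10 of the 60S subunit. The largest falls were those of *Rps27l* (-0.24), *Rps14* (-0.19), *Rpl35* (-0.17), *Rps9* (-0.17) and *Rps3* (-0.16). Among those that fell by less were *Rpl18*, *Rpl36*, *Rpl3*, *Rps7*, *Rpl32*, *Rps19*, *Rps16*, *Rps3a1*, *Rps20*, *Rplp0*, *Rpl5*, *Rps25*, *Rpl28* and *Rpl10*, down to -0.076 for *Rpl10*. The median of all members was -0.091, against -0.012 for all genes, and 73 had a negative sign (91.2%, where 54% of all genes did); under quantile normalization the median was -0.0065, above the -0.0074 of all genes, the calls were 1 higher and 2 lower (5.15% and 2.9% of all genes were), and *Rplp0*, *Rps3a1*, *Rpl36* and *Rpl10* did not keep their sign. Libraries did not overlap for 56 members that were lower and 1 that was higher (70% and 1.25%, where 17.6% and 14.3% of all genes were). The si*Creb1* plus TVA libraries also had the highest sum of myeloid markers, 8.61 to 9.5 FPKM against 5.5 to 6.89 in siNTC plus TVA cells. *Lyz2*, the only one of the 6 abundant enough to be tested, rose (from a mean of 5.48 to 7.54 FPKM, 0.40 ± 0.11 SE, adjusted p = 0.0478), and *Pf4* fell (from a mean of 68.9 to 52.8 FPKM, -0.38 ± 0.048 SE, adjusted p = 0.00181). Of the 7 T cell markers, *Cd3d* and *Trac* fell here, 6 had a negative sign and 1, *Cd3e*, a positive one (from a mean of 97.0 to 104.4 FPKM). *Cd8b1* fell (from a mean of 934 to 846 FPKM, -0.14 ± 0.019 SE, adjusted p = 0.00224) and *Cd8a* rose (from a mean of 424 to 450.1 FPKM, 0.087 ± 0.015 SE, adjusted p = 0.0068). The part of these cells in the difference was not tested. The number of calls rested on single libraries: it was 6 without siNTC plus TVA replicate 2 or si*Creb1* plus TVA replicate 2, 7 without si*Creb1* plus TVA replicate 1, 9 without siNTC plus TVA replicate 3, 10 without si*Creb1* plus TVA replicate 3 and 12 without siNTC plus TVA replicate 1, while the median of the members stayed between -0.10 and -0.077. Over all genes those fits gave 598 to 757 calls, against 1172 with all libraries.

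*Rpl5*, which with *Rpl11* and 5S rRNA forms the particle that can hold *Mdm2*, was read at 619, 608 and 613 FPKM in siNTC cells, 585, 597 and 587 with siNTC plus TVA, 579.6, 595 and 573 with si*Creb1* and 543, 546 and 566 with si*Creb1* plus TVA. It fell with si*Creb1* in the presence of TVA (-0.096 ± 0.022 SE, adjusted p = 0.0239). Its partner *Rpl11* had the larger estimate with a wider spread (-0.19 ± 0.071 SE, adjusted p = 0.12). *Rps19*, the 40S gene most often mutated in Diamond-Blackfan anaemia, was at 335, 337 and 335 FPKM in siNTC plus TVA cells and 307, 304 and 314 in si*Creb1* plus TVA cells (-0.12 ± 0.032 SE, adjusted p = 0.0381). *Rps9* was at 1046, 1068 and 1063 FPKM and 936, 921 and 969.7 (-0.17 ± 0.040 SE, adjusted p = 0.025). Both pairs were without overlap. *Rpl10*, which joins the 60S subunit late and had the narrowest spread of all members, was at 709, 726 and 723 FPKM and 681, 685 and 681 (-0.076 ± 0.017 SE, adjusted p = 0.0191). Reads of *Rpl35* and of *Wdr38* on the opposite strand cannot be told apart where the counting did not use strand; *Wdr38* had 7 to 23 reads a library.

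The 2 knockdown comparisons contrast different libraries. Each gene's spread was estimated from all 12 libraries for both, so the calls in the 2 are not independent. Between them, 7 members were lower in both, among them *Rpl18*, *Rpl3*, *Rplp0*, *Rps14*, *Rps3* and *Rps3a1*. The 7 are 46.7% of the 15 lower without TVA and 30.4% of the 23 lower with it, and 8.75% of the members tested, where 2.3% of all genes were lower in both. Members whose libraries were lower without overlap in both numbered 23 (28.8%, where 6.51% of all genes were). Among the 5 members with a CRE in the RefSeq window, *Rpl13*, *Rpl18* and *Rpl26* fell with si*Creb1* in the absence of TVA and *Rpl18* and *Rps9* in its presence, where 8 and 12 of the 55 tested members with a window and no CRE did. The medians of the 5 and the 55 were -0.095 and -0.044 without TVA, and -0.083 and -0.087 with it. With TVA in siNTC cells, where *Creb1* was not knocked down, 2 of the 5 and 5 of the 55 fell, with medians of -0.092 and -0.040. With si*Creb1*, members with a pyrimidine stretch so counted fell in 3 of 25 cases without TVA and 5 of 25 with it. Those with a window and no such stretch fell in 8 and 9 of 35. With so few members these counts and medians describe the promoters and set no difference between them.

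The interaction, whether the effect of TVA differed between siNTC and si*Creb1* cells, passed the adjusted threshold in no member, where 1.78% of all genes did in the lower and 0.459% in the higher direction with limma. At an unadjusted p under 0.05 it was lower in 6 members and higher in 2 (7.5% and 2.5%, where 8.2% and 6.15% of all genes were), and limma-voom on recovered reads called 3, all lower, where 2.81% of all genes were lower and 1.07% higher in that fit. The median of the members was -0.038, against 0.0020 for all genes, and 56 had a negative sign (70%, where 49.3% of all genes did). Under quantile normalization the median was -0.025. A like shift was seen outside the members. Of 77 mitochondrial ribosomal protein genes 46 had a negative interaction, with a median of -0.036. Of 64 translation factor genes 45 had a negative one, also with a median of -0.036. *Rps27l*, a paralogue of *Rps27* that p53 induces, had the lowest unadjusted p, and its interaction was -0.28 ± 0.077 (SE; adjusted p = 0.112). It was read at 71.0, 79.3 and 79.3 FPKM in siNTC cells, 84.6, 88.4 and 85.6 with siNTC plus TVA, 84.0, 79.2 and 72.1 with si*Creb1* and 73.3, 73.3 and 71.3 with si*Creb1* plus TVA. It was highest in siNTC plus TVA cells, where each library was above all others, and it fell with si*Creb1* in the presence of TVA (-0.24 ± 0.055 SE, adjusted p = 0.0206). *Rps29*, *Rpl21*, *Rpl22* and *Rpl14* were among the others with a lower interaction, and the 2 with a higher one were *Rpl19* and *Rpl15*, named here because of their number.

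Paralogues were compared with their main copies. *Rpl22* had a mean of 199 FPKM and its paralogue *Rpl22l1* 54.4 FPKM; in T cells *Rpl22* is known to be needed for the development of αβ T cells. *Rpl22* was read at 195, 195 and 197 FPKM in siNTC cells, 204, 204 and 201 with siNTC plus TVA, 198, 205 and 199.7 with si*Creb1* and 199.8, 193 and 191 with si*Creb1* plus TVA, and differed by 0.054 ± 0.022 (SE; adjusted p = 0.191) with TVA in siNTC cells and -0.048 ± 0.022 (SE; adjusted p = 0.533) in si*Creb1* cells. *Rpl22l1* differed by 0.099 ± 0.070 (SE; adjusted p = 0.471) and 0.031 ± 0.070 (SE; adjusted p = 0.937). *Rpl7l1*, which acts in the making of ribosomes, was at 27.5 FPKM beside *Rpl7* at 705 FPKM, and *Rps27l* at 78.5 FPKM beside *Rps27* at 1225 FPKM. *Rpl36a* (368 FPKM) and *Rpl39* (471 FPKM) did not pass the test in any of the comparisons; the 95% interval of the si*Creb1* difference with TVA was -0.068 to 0.035 for *Rpl36a* and -0.23 to 0.0051 for *Rpl39*. The stalk genes *Rplp1* and *Rplp2* did not pass either, beside *Rplp0*, which fell in 3 comparisons, under quantile normalization in none of them. With si*Creb1* and TVA, *Rplp1* differed by -0.071 ± 0.035 (SE; adjusted p = 0.224) and *Rplp2* by -0.094 ± 0.039 (SE; adjusted p = 0.158). *Rpl38*, which is known for a part in translating Hox mRNAs, *Rpl13a*, part of the interferon-γ-driven silencing complex, and *Rpsa*, the laminin receptor precursor, gave -0.038 ± 0.045 (SE; adjusted p = 0.639), -0.13 ± 0.057 (SE; adjusted p = 0.191) and -0.012 ± 0.031 (SE; adjusted p = 0.845) in the same comparison.

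Members were measured with little spread. The median SD within groups was 0.041 on the log2 scale over the 80 members, against 0.076 over all genes tested. *Rps27a*, which is made as a fusion with ubiquitin, stood apart with an SD of 0.49. It was read at 433, 608 and 331 FPKM in siNTC cells, 262, 559 and 438 with siNTC plus TVA, 243, 534 and 251 with si*Creb1* and 556, 403 and 511 with si*Creb1* plus TVA. The 4 groups overlapped, and with its copies added the coefficient of variation within groups was 29.4%, against 32.0% without them. Its fold changes were 0.60 ± 0.35 (SE; adjusted p = 0.654) with TVA in si*Creb1* cells and -0.47 ± 0.35 (SE; adjusted p = 0.427) with si*Creb1* in the absence of TVA, the largest estimates of any member in those comparisons and within this spread. *Rpl17* had the next largest SD (0.25), followed by *Rpl7a* (0.21).

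Of 5 genes of ribosomal proteins that the name rule leaves out, 4 were tested, and 1, 0, 2 and 1 of them fell in the 4 comparisons, in the order in which they are described above, with none higher. For this and the lists that follow, the share of all genes called was 2.88% lower and 4.49% higher with TVA in siNTC cells, 0.416% and 0.121% with TVA in si*Creb1* cells, 7.21% and 6.52% with si*Creb1* without TVA and 5.51% and 4.64% with si*Creb1* in the presence of TVA. *Rack1*, the 40S-bound signalling scaffold, fell with TVA in siNTC cells (from a mean of 555 to 509 FPKM, -0.12 ± 0.024 SE, adjusted p = 0.0107), with si*Creb1* without TVA (from a mean of 555 to 499 FPKM, -0.15 ± 0.024 SE, adjusted p = 0.00273) and with si*Creb1* in its presence (from a mean of 509 to 462 FPKM, -0.14 ± 0.024 SE, adjusted p = 0.0068). *Fau*, which encodes a 40S protein fused to a ubiquitin-like one, fell with si*Creb1* (from a mean of 1690.0 to 1479 FPKM, -0.19 ± 0.043 SE, adjusted p = 0.0158). *Rps27rt*, a retrogene identical to *Rps27* in its coding sequence and hence uncertain, differed by -0.22 ± 0.16 SE, adjusted p = 0.406, with si*Creb1*. Of 24 other mRNAs of translation known to carry a 5′TOP, 3 rose and 2 fell with TVA in siNTC cells, none passed in si*Creb1* cells, 2 rose and 4 fell with si*Creb1*, and 4 fell with si*Creb1* in the presence of TVA. *Eif3h*, a subunit of the initiation factor that binds the 40S subunit, fell in 3 of these comparisons, furthest with si*Creb1* (from a mean of 412 to 371 FPKM, -0.15 ± 0.021 SE, adjusted p = 0.00138). *Tpt1*, a growth-related TOP mRNA, *Eef1b2* and *Eif3k* fell with si*Creb1* without and with TVA, *Tpt1* the furthest of these 3 both without TVA (from a mean of 2104 to 1854 FPKM, -0.18 ± 0.022 SE, adjusted p = 0.000771) and with it (from a mean of 2052 to 1787 FPKM, -0.20 ± 0.022 SE, adjusted p = 0.000986). *Eef2*, the translocation factor, fell with TVA in siNTC cells (from a mean of 2001 to 1807 FPKM, -0.15 ± 0.031 SE, adjusted p = 0.0172). *Hnrnpa1* and the host gene *Snhg5* rose with TVA in siNTC cells and with si*Creb1* without TVA, and *Nap1l1*, a histone chaperone, with TVA in siNTC cells (from a mean of 60.3 to 71.9 FPKM, 0.25 ± 0.052 SE, adjusted p = 0.0145).

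Of 77 mitochondrial ribosomal protein genes tested, none passed with TVA in siNTC or si*Creb1* cells. With si*Creb1*, *Mrpl34* and *Mrpl43* fell, and with si*Creb1* in the presence of TVA these and *Mrpl18*, *Mrpl40* and *Mrpl9* fell while *Mrpl24* rose. Their medians were 0.014, -0.031, -0.024 and -0.072 in the 4 comparisons. Of 64 translation factor genes, which include the Eif and Eef genes just named, 2 rose and 2 fell (4.49% and 2.88% of all genes did), none passed (0.121% and 0.416%), 3 rose and 6 fell (6.52% and 7.21%), and 1 rose and 9 fell (4.64% and 5.51%), with medians of 0.0023, -0.032, -0.026 and -0.071. *Eif1*, which helps select the start codon, fell with si*Creb1* in the presence of TVA (from a mean of 148 to 131 FPKM, -0.17 ± 0.025 SE, adjusted p = 0.00312), and the helicase gene *Eif4a1* rose with TVA in siNTC cells (from a mean of 132 to 141 FPKM, 0.091 ± 0.018 SE, adjusted p = 0.0114). Of 29 chaperones, export and assembly factors of ribosomal proteins, 1, 0, 2 and 1 rose and none fell. *Ipo5*, which imports ribosomal proteins into the nucleus, rose with TVA in siNTC cells (from a mean of 23.5 to 26.4 FPKM, 0.16 ± 0.026 SE, adjusted p = 0.00407) and with si*Creb1* (from a mean of 23.5 to 27.3 FPKM, 0.21 ± 0.026 SE, adjusted p = 0.000886), and its interaction was -0.23 ± 0.037 SE, adjusted p = 0.00899. *Mdn1*, which acts in 60S assembly, rose with si*Creb1* without and with TVA. Of 17 genes of the mTORC1, S6 kinase and LARP1 arm, *Akt1s1* fell with TVA in siNTC cells (from a mean of 12.8 to 10.8 FPKM, -0.22 ± 0.045 SE, adjusted p = 0.0143) and with si*Creb1* without TVA (from a mean of 12.8 to 10.8 FPKM, -0.22 ± 0.045 SE, adjusted p = 0.0107), and *Larp1* rose with si*Creb1* without TVA (from a mean of 58.0 to 63.0 FPKM, 0.12 ± 0.024 SE, adjusted p = 0.0108). Both passed in the interaction as well, at 0.34 ± 0.064 SE, adjusted p = 0.0221, and -0.18 ± 0.034 SE, adjusted p = 0.0229. Of 14 transcription factors of ribosomal protein promoters, *Creb1* itself fell with each knockdown, *E2f1* rose and *Zbtb7a* fell with TVA in siNTC cells, and no other passed. Of 14 genes of the 5S particle and the p53 response, among them the members *Rpl5* and *Rpl11*, *Bbc3* and *Sesn1* fell with TVA in siNTC cells and with si*Creb1* without TVA, *Mdm4*, which restrains p53, rose with si*Creb1* without TVA (from a mean of 22.9 to 27.2 FPKM, 0.24 ± 0.029 SE, adjusted p = 0.000771) and with it, and *Ccng1*, *Cdkn1a* and *Rpl5* fell with si*Creb1* in the presence of TVA.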

How the data were processed

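Per the labels, RNA of 12 libraries of activated mouse CD8+ T cells was sequenced. The authors deposited FPKM per gene, with positions on GRCm38 (mm10, from the submitters' processing notes); the aligner and counter are not given in the sources used here. Dividing by the step of 1 read gave whole reads (tolerance 0.05) for at least 99.995% of values. FPKM was tested as log2(FPKM + 1) with limma 3.58.1 (R 4.3.3) over the 11550 genes with a mean of at least 1 FPKM, 1 coefficient per group, a mean-variance trend and Benjamini-Hochberg adjustment at 0.05; a fold change on this scale understates that of low genes. All 12 libraries entered each fit. Counts of members are read beside the percentage of all genes called. Near-identical copies were sought with blastn 2.17.0, a search added after the values were seen. Scripts were tested on simulated data. The members, lists and rules were chosen with earlier results of these data known. Named were *Creb1*, the 5 largest falls and rises per comparison, the 5 highest and lowest members, stalk genes, paralogues, members with a known role beside the ribosome and list genes that passed; members shown for spread, promoter letters or lowest p were added after their values were seen. Some members were counted but are not reported here by name. Comparisons that share a group share its libraries. Alternatives were another pseudocount, other filters, TPM, quantile and median-of-ratios scaling, limma-voom on recovered reads, the replicate block, fits on only the libraries compared and leaving out each library.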

Additional observations from a re-analysis of the deposited data

How the results depend on the processing

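The members' median was below that of all genes in each comparison under every alternative except quantile normalization, where it was above by 0.011 with TVA in siNTC cells, by 0.026 with si*Creb1* without TVA and by 0.00093 with si*Creb1* in the presence of TVA. Quantile normalization gives every library the same set of values, and 61 of the 100 highest protein-coding genes were members. It therefore cannot decide whether the members shifted together. The cause of the difference was not tested. Members called in either direction with TVA in siNTC cells numbered 8, and 0 with all genes above 0, 1 under quantile normalization, 1 with TPM, 4 with TPM without the short RNA gene Gm23935 (3.58 to 9.11% of summed FPKM), 2 with no trend, 19 with limma-voom, 0 with only the libraries compared and 1 to 10 on leaving out a library. All genes called in the same fits, in that order, numbered 852 (of 11550), 563 (of 29700), 770, 556, 798, 724, 1048, 375 (of 11471) and 556 to 767. With TVA in si*Creb1* cells the count of members was 0, and 18 with limma-voom and 0 to 2 without 1 library (2 without siNTC replicate 1, 1 without siNTC replicate 3). All genes called in these fits numbered 62, 161 and 30 to 67. With si*Creb1* without TVA the count of members was 15, and 4 with all genes above 0, 5 under quantile normalization, 3 with TPM, 9 with TPM without Gm23935, 31 with limma-voom, 4 with only the libraries compared and 9 to 16 without 1 library. All genes called in these fits, in that order, numbered 1586, 992 (of 29700), 1385, 1205, 1585, 1991, 824 and 1022 to 1524. With si*Creb1* in the presence of TVA the count of members was 23, and 4, 3, 2 and 6 with the same first 4 settings, 10 with no trend, 42 with limma-voom and 6 to 27 without 1 library. All genes called in these fits, in that order, numbered 1172, 683 (of 29700), 930, 740, 1166, 937, 1616 and 598 to 1244. All these calls of members were lower except, with si*Creb1* without TVA, 2 under quantile normalization, 1 with TPM without Gm23935, 2 with limma-voom and 1 without siNTC replicate 3, with si*Creb1* in the presence of TVA, 1 under quantile normalization, and with TVA in siNTC cells, 1 without si*Creb1* replicate 3. The interaction gave 0 members, and 3 with limma-voom and 0 to 1 without 1 library (1 without si*Creb1* replicate 3). Over all genes it gave 259, 449 and 168 to 237 calls. The share of summed FPKM gave 0.995 for si*Creb1* over siNTC. Under quantile normalization the log2 fold change turned positive for *Rpl19* (0.0091), *Rpl8* (0.0011) and *Rps6* (0.0070) with TVA in siNTC cells, for *Rpl19* (0.0091), *Rpl3* (0.011) and *Rpl8* (0.0011) with si*Creb1* without TVA, and for *Rpl10* (0.010) and *Rpl36* (0.018) with si*Creb1* in the presence of TVA. With the reads of copies added, an alternative chosen after seeing the data like TPM without Gm23935, the counts were 8, 0, 16, 22 and 0. Over all genes they were 853, 62, 1587, 1172 and 260.

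The labels give every group the same replicate numbers, but libraries of the same number did not deviate together (correlations from -0.059 to 0.060 over 18 pairs), so the numbers were not used as pairs. With the replicate block the counts of members were 3, 0, 13, 17 and 0, and over all genes 687, 34, 1385, 973 and 195. Depth limits *Rpl24* and *Rps10* (means of 59.3 and 124 reads) and the members that were not tested.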
